A study of Mus musculus with 10 samples.

Results

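Keratins and claudins were described here as the 31 genes whose symbol is Krt or Cldn followed by a number and nothing else, out of 20579 genes in the count table. They comprised 16 keratins, 10 of type I and 6 of type II, and 15 claudins. Names with a further suffix, such as Krt6a, the pseudogene Krt8-ps and Cldn34c1, fell outside this rule, and members of both families that the table did not list were not analysed here. Of the 31, 23 passed edgeR's filter on low counts, 11 keratins and 12 claudins, and were tested among 16710 genes.

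The libraries came from intestines of mouse embryos at stage E18.5, 5 of genotype p57KO and 5 of genotype p57WT. The p57KO embryos lack p57Kip2, an inhibitor of cyclin-dependent kinases made from the imprinted gene Cdkn1c. The sources used here do not state which part of Cdkn1c was deleted. Both genotypes carried green fluorescent protein driven by the Hopx promoter, and the strain was labelled C57BL6/J / 129S4. Crypts were broken up mechanically, fluorescent cells were sorted into Trizol, and total RNA was read as pairs on an Illumina HiSeq. Each library was taken as 1 intestine, as the design text counts them, but no animal identifiers were given, so p-values measure only the spread between these libraries. The label of each library also carries a number of unknown meaning: 607 for p57KO 1, p57KO 2 and p57WT 1, 608 for p57KO 3 to 5, and 740 for p57WT 2 to 5. Number and genotype are therefore nearly confounded, and effects of the numbers 608 and 740 and of the genotype cannot be told apart outside 607.

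Keratins are the intermediate filament proteins of epithelial cells. A type I and a type II keratin pair to build each filament, which desmosomes link from cell to cell. Simple epithelia such as the gut use Krt8 as the main type II partner of Krt18, Krt19 and Krt20, and stratified epithelia such as skin use other pairs. Claudins are membrane proteins with several spans that form the strands of the tight junction. Some seal the gap between cells and others form pores for ions and water, so the mix of claudins sets what an epithelium lets through.

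The promoters of 4 keratins are shown because these genes make up the simple epithelial pairs whose levels are described next. They come from RefSeq on build GRCm38.p6, span 250 bases before to 50 bases after the start site, run 5′ to 3′ on the gene's strand, and have the letters TATAAA in capitals where present. Krt20 lies at chr11:99438104-99438403 (minus strand), Krt8 at chr15:102004293-102004592 (minus strand), Krt18 at chr15:102027966-102028265 (plus strand) and Krt7 at chr15:101412153-101412452 (plus strand).
Krt20: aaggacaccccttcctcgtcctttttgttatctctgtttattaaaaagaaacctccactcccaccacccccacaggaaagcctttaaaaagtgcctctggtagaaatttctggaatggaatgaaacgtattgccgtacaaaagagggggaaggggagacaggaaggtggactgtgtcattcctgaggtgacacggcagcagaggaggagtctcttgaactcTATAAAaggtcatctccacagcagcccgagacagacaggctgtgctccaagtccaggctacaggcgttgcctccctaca
Krt8: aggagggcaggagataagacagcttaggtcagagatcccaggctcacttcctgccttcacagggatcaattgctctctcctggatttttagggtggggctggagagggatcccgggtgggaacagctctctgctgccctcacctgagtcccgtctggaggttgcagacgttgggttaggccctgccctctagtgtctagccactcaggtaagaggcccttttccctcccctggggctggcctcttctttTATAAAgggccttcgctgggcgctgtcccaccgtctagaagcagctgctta
Krt18: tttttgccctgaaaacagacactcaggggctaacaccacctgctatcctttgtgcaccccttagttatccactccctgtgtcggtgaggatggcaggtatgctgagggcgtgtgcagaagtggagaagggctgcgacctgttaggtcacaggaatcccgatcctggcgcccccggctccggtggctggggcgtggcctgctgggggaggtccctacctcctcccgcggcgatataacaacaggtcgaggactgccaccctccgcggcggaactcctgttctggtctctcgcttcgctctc
Krt7: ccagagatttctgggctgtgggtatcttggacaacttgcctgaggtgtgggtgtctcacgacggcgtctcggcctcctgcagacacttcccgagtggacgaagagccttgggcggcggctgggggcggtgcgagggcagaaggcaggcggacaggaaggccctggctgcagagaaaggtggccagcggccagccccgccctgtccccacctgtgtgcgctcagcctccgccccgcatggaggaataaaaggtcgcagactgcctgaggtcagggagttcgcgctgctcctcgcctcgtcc
On the gene's strand TATAAA began 29 bases before the start site of Krt20 and 1 base before that of Krt8, and these letters were not in the Krt18 and Krt7 windows. Of 32851 RefSeq promoters of the same length, 8.32% held TATAAA on the gene's strand and 13.6% on either strand. Besides Krt20 and Krt8, the promoters of Krt10 and Cldn2 held it among the 19 of 31 members that matched an entry. The letters GGGCGG, in 35.7% of all promoters on either strand, stood 2 times on each strand of the Krt7 window. The letters TTTATNG, in 10.9% of all promoters on either strand, stood on the other strand of the Krt20 window, where they overlap its TATAAA. The letters CAAAGTCCA, in 0.475% of all promoters on either strand, were in none of the members' windows. A match of letters is a description and not a binding site.

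The keratins lay on 2 chromosomes and the claudins on 8. Of the 10 type I keratins 9 are on chromosome 11 and Krt18 is on chromosome 15 with the 6 type II keratins, 23698 bases from its partner Krt8. Krt20 lies 39039 bases from Krt10 and 39824 bases from Krt23 on the same strand. Of the claudins 5 are on chromosome 5, among them Cldn4 and Cldn3 with 39280 bases between them, and Cldn6 and Cldn9 are 138 bases apart on chromosome 17. All coordinates are of build GRCm38 with the GENCODE M21 annotation, a gene span covering its exons and introns.

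Total counts were 10684179 to 26809231 in p57KO and 8037887 to 25527896 in p57WT libraries, and 3 counts, the limit that a count of 0 allows, equalled 0.105 to 0.392 CPM, the usual count unit relative to the TMM-adjusted library total. Intervals and this limit cover counting error only. Cdkn1c averaged 0.840 ± 0.764 CPM in p57KO and 230 ± 129 CPM in p57WT (SD, n = 5 each), so the genotype labels held. The share of counts on 3 ribosomal RNA features was 0.0592% to 9.47% in p57KO, where only p57KO 5 was above 5%. In p57WT it was 0.0301% to 17%, and only p57WT 2 was below 5%. Within number 607 it was 0.435% in p57KO 1, 0.0651% in p57KO 2 and 15% in p57WT 1. Genotype and this share therefore cannot be told apart within 607. The labels call the cells intestinal stem cells, and markers of other cells were present in every library. The summed level of 8 smooth muscle markers was 4703 to 31994 CPM in p57KO and 48298 to 97088 CPM in p57WT, and all 8 fell. Leukocyte markers summed to 199 to 8737 CPM in p57KO and 20.7 to 131 CPM in p57WT, and all 7 tested rose. The summed level of 17 general intestinal epithelium markers, none of them a keratin or claudin, was 8182 to 13616 CPM in p57KO and 2569 to 6030 CPM in p57WT, and 16 of the 17 rose with a median log2 fold change of 1.28. In such bulk samples fewer cells of a type and less RNA per cell cannot be told apart.

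All 6 keratins of simple epithelia and 8 claudins rose in p57KO libraries. By edgeR's quasi-likelihood test with Benjamini-Hochberg adjustment over all 16710 genes and a threshold of 0.05, 15 of the 23 tested members rose, 1 fell and 7 did not pass. Of all genes tested, 36.5% passed, 19.3% higher and 17.2% lower. The keratins that rose were 7 of 11, with 1 lower and a median log2 fold change of 1.41 over those tested, and the claudins that rose were 8 of 12, with none lower and a median of 1.43, against a median of 0.08 over all genes tested. For 10 members no library of one genotype reached the range of the other, 9 of them with p57KO above, against 24.2% of all genes tested without overlap. These counts include only members that passed the filter.

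The size of these differences was close to that of the epithelial markers. When libraries were scaled so that the mean log2 level of the 17 epithelial markers was equal, the median over all genes was -1.26, 3 members rose (Krt20, Cldn8 and Cldn6) and 2 fell (Krt17 and Krt10), and 18 did not pass. The median over the 23 members was then 0.17. On this scale 64.1% of all genes passed, 2.83% higher and 61.3% lower. With the class of ribosomal RNA share as a term, a fit added after seeing the data, Krt20, Krt7, Cldn7, Cldn8, Cldn14 and Cldn6 passed, as did 17.7% of all genes. That class nearly follows genotype, as only p57KO 5 and p57WT 2 depart from it, so few libraries separate class from genotype. The 10 other called members kept their sign in that fit, among them Krt8 at 1.13, Krt18 at 0.99, Krt19 at 1.01, Cldn2 at 1.2, Cldn15 at 1.23 and Krt17 at -1.69, with edgeR adjusted p between 0.05003 and 0.332. With the label number as a term Krt20 alone passed. The split of called members between higher and lower on the epithelial scale was 3 to 2, against 15 to 1 with TMM. Whether cell composition accounts for any of these differences, those of Krt20, Cldn8 and Cldn6 included, was not tested.

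**Figure D1:**
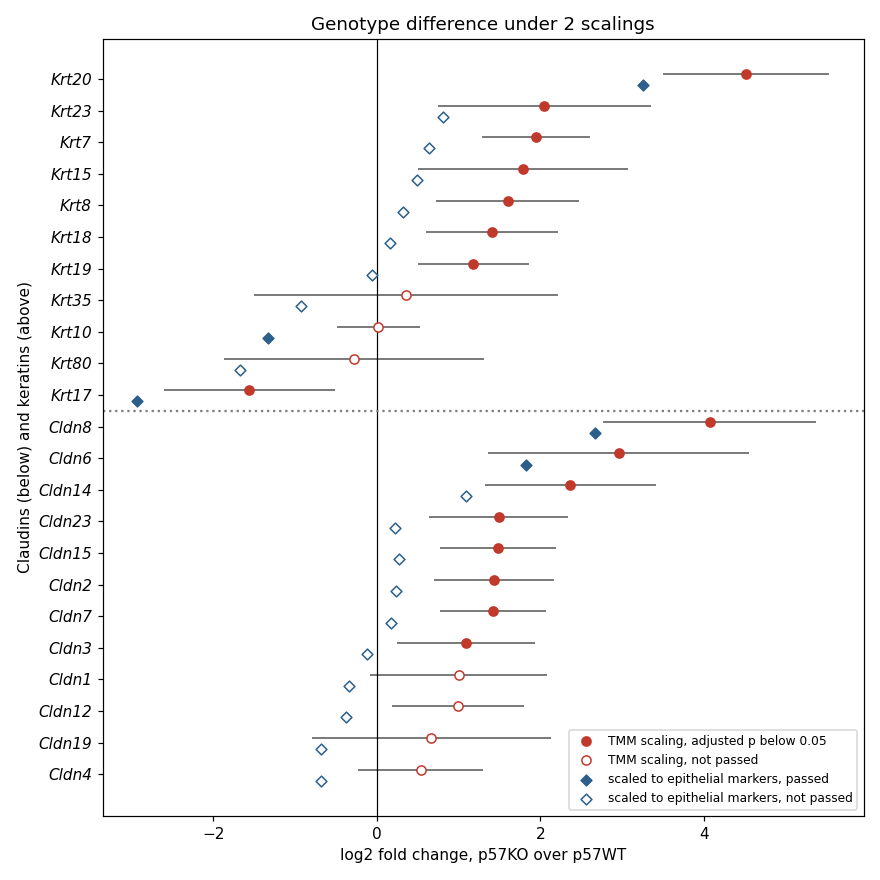
Log2 fold change of p57KO over p57WT with 95% limits for the 23 tested keratins and claudins, on the TMM scale and, as diamonds, after scaling to 17 epithelial markers. Krt20 and Cldn8 lie furthest above 0 on both scales, and the diamonds of Krt19, Krt10, Krt35, Cldn3, Cldn4, Cldn12, Cldn1 and Cldn19 lie below 0 while their TMM values lie above it.

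Krt20, a type I keratin of differentiated villus cells, was the keratin with the largest increase. It was at 75.6, 363, 193, 140 and 83.2 CPM in p57KO 1 to 5, and at 11.6, 5.81, 4.96, 8.77 and 6.40 CPM in p57WT 1 to 5. The lowest p57KO library was well above the highest p57WT library, which was p57WT 1. The means were 171 ± 117 CPM in p57KO and 7.51 ± 2.69 CPM in p57WT (SD, n = 5 each), a log2 fold change of 4.51 (SE 0.47, 95% limits 3.50 to 5.53, edgeR adjusted p = 0.000178), or 22.8-fold. It was the sole member to pass within number 607, at 4.24 (edgeR adjusted p = 0.0181), where 6.04% of all genes passed and the single p57WT library was assumed to vary like the other groups. Relative to the epithelial markers it was 0.225, 1.15, 0.595, 0.395 and 0.297 times their geometric mean in p57KO 1 to 5, against 0.0364 to 0.0707 in p57WT. The gene lies on chromosome 11, 99428403 to 99438150, minus strand (ENSMUSG00000035775).

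Krt7, a type II keratin of glands and ducts, also stood apart between the genotypes. It was at 140, 374, 289, 225 and 163 CPM in p57KO 1 to 5, and at 86.6, 53.2, 42.7, 60.4 and 66.5 CPM in p57WT 1 to 5. Every p57KO library was above every p57WT library, and p57KO 2 was highest for both Krt7 and Krt20. The means were 238 ± 95.5 CPM in p57KO and 61.9 ± 16.4 CPM in p57WT (SD, n = 5 each), with a log2 fold change of 1.95 (SE 0.31, 95% limits 1.29 to 2.6, edgeR adjusted p = 0.000788). Against the epithelial markers it was 0.64 (edgeR adjusted p = 0.111). The gene lies on chromosome 15, 101411043 to 101430313, plus strand (ENSMUSG00000023039).

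Krt8 and Krt18, the founding pair of simple epithelia, rose together with Krt19, their type I companion in gut and ducts. Krt8 (chromosome 15, 101996698 to 102004482, minus strand) was at 3420, 1775, 1019, 1103 and 886 CPM in p57KO 1 to 5, and at 766, 661, 471, 478 and 332 CPM in p57WT 1 to 5. The p57KO libraries were all above the p57WT libraries, and p57KO 1 was nearly double the next. The means were 1640 ± 1052 CPM in p57KO and 541 ± 172 CPM in p57WT (SD, n = 5 each), with a log2 fold change of 1.6 (SE 0.41, edgeR adjusted p = 0.00906). Without p57KO 1 and p57KO 2 it was 0.95 (edgeR adjusted p = 0.0177). Of the 50-base stretches of Krt8, 29.7% also occur in Krt8-ps or Gm36026, so reads between these copies may be split, and the Krt8 count was 35.1 times that of Krt8-ps in p57KO 1 but 5.39 to 6.46 times in the other p57KO libraries and 6.58 to 16.6 times in p57WT.

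Krt18 (chromosome 15, 102028180 to 102032027, plus strand) was at 896, 1349, 550, 548 and 342 CPM in p57KO 1 to 5, and at 428, 257, 270, 258 and 176 CPM in p57WT 1 to 5. Here p57KO 5 was below p57WT 1, so the groups overlapped. The means were 737 ± 396 CPM in p57KO and 278 ± 92.2 CPM in p57WT (SD, n = 5 each), with a log2 fold change of 1.41 (SE 0.37, edgeR adjusted p = 0.0111). Krt19 (chromosome 11, 100140810 to 100148665, minus strand) was at 1388, 2060, 1034, 1260 and 1001 CPM in p57KO 1 to 5, and at 948, 594, 485, 572 and 377 CPM in p57WT 1 to 5. The p57KO libraries were all above the p57WT libraries, though p57KO 5 and p57WT 1 were close. The means were 1349 ± 429 CPM in p57KO and 595 ± 215 CPM in p57WT (SD, n = 5 each), with a log2 fold change of 1.18 (SE 0.32, edgeR adjusted p = 0.0118). Relative to the epithelial markers Krt8, Krt18 and Krt19 were at 0.32, 0.17 and -0.055 on the log2 scale, the edgeR adjusted p running from 0.494 to 0.889, so the sign of Krt19 turned.

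**Figure D2:**
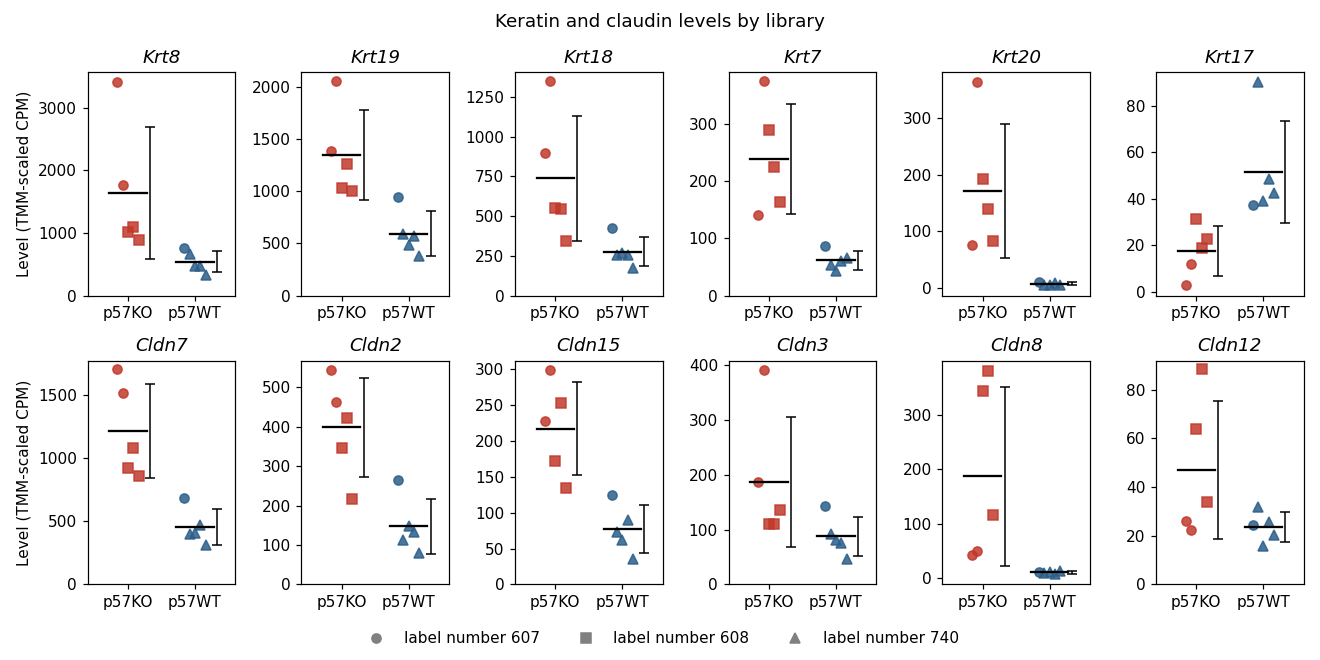
CPM of 12 members in each library, p57KO left of p57WT, with the mean as a line, the SD as a bar and the marker shape giving the label number. Krt8, Krt19, Krt7, Krt20, Cldn7, Cldn15 and Cldn8 show no overlap between the genotypes, with p57KO above. Krt17 also shows none and is the panel where p57KO lies below.

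Per transcript length the same 3 keratins made up most of the keratin RNA in both genotypes. On RPKM (CPM per kilobase of merged exons), Krt8 was at 838 ± 537 in p57KO and 276 ± 87.6 in p57WT, Krt19 at 727 ± 231 in p57KO and 321 ± 116 in p57WT, and Krt18 at 513 ± 275 in p57KO and 193 ± 64.1 in p57WT. In p57KO Krt20 came next at 88.8 ± 61.0, then Krt7 at 33.8 ± 13.5 and Krt17 at 11.3 ± 6.95. In p57WT Krt17 came next at 33.2 ± 14.2, then Krt7 at 8.78 ± 2.33, Krt10 at 5.88 ± 0.938 and Krt20 at 3.90 ± 1.40 (SD, n = 5 each, no test). These orders depend on the length used, as Krt7 has 7049 bases of merged exons but 1371 coding bases. Per coding length Krt7 came above Krt20 in p57KO and above Krt17 in p57WT. Krt8, Krt18 and Krt19 together held 92.9% ± 3.0 of the keratin level in p57KO and 93.2% ± 1.94 in p57WT, while Krt20 held 4.13% ± 2.01 in p57KO and 0.471% ± 0.129 in p57WT. Among these shares p57KO 1 stood out, with Krt8 at 54.7% of the keratin level against 28.1% to 34.3% in the other p57KO libraries and 31.1% to 36.9% in p57WT.

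**Figure D3:**
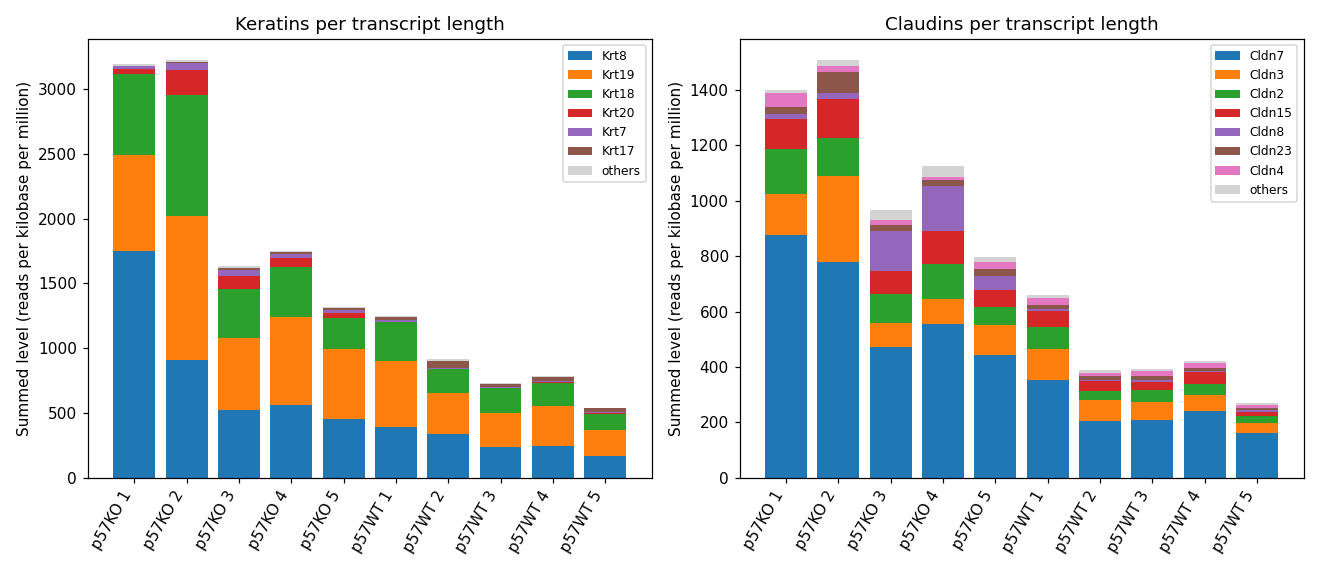
Per-length level of keratins and of claudins in each library, p57KO left of p57WT, stacked by gene. The keratin stack is led by Krt8, Krt19 and Krt18 in every library, and Cldn8 is a visible layer in p57KO 3, 4 and 5.

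Of the 4 tested keratins of stratified epithelia, 1 rose (Krt15), 1 fell (Krt17) and 2 did not pass, with a median log2 fold change of -0.13. Krt17, a type I keratin of skin appendages and wounded skin, was at 2.75, 11.8, 31.2, 19.0 and 22.5 CPM in p57KO 1 to 5, and at 37.2, 90.3, 39.1, 48.5 and 42.4 CPM in p57WT 1 to 5. All p57KO libraries were below the p57WT libraries, lowest in p57KO 1 and highest in p57WT 2. The means were 17.5 ± 10.8 CPM in p57KO and 51.5 ± 22.1 CPM in p57WT (SD, n = 5 each), with a log2 fold change of -1.56 (SE 0.49, edgeR adjusted p = 0.0237), and it was the sole tested member to fall. The call was lost without p57KO 2 (-1.39, edgeR adjusted p = 0.0633) or without p57WT 2 (-1.25, edgeR adjusted p = 0.0638). Smooth muscle markers were ordered alike at the extremes, being lowest in p57KO 1 and highest in p57WT 2, and their part in the Krt17 difference was not tested. None of the 3 tested markers of the mesothelium, another keratin-bearing lining, passed, and their list summed to 4.39 to 23.7 CPM in p57KO and 3.04 to 53.2 CPM in p57WT. Of 10 squamous epithelium markers listed, 2 were tested and neither passed. That list summed to 28.2 to 146 CPM in p57KO and 28.5 to 66.7 CPM in p57WT, mostly from Sfn. The mean of Sfn was 63.1 CPM in p57KO and 34.6 CPM in p57WT. Of the Krt17 50-base stretches 3.99% also occur in Krt14, Krt15, Krt16 or Krt42.

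Krt10, the suprabasal partner of Krt1, differed least. It averaged 12.6 ± 1.13 CPM in p57KO and 12.4 ± 1.98 CPM in p57WT (SD, n = 5 each), with a log2 fold change of 0.02 (95% limits -0.49 to 0.53, edgeR adjusted p = 0.957). Scaled to the epithelial markers it was lower in p57KO, at -1.33 (edgeR adjusted p = 0.00427), a value close to the shift of all genes. Its exons overlap an antisense gene, Gm11940, and the strand setting of the counting was not given. Krt23, a type I keratin of digestive epithelia, averaged 6.77 ± 6.34 CPM in p57KO and 1.65 ± 0.858 CPM in p57WT, with a log2 fold change of 2.05 (SE 0.60, edgeR adjusted p = 0.0189), and lost its call without p57KO 2 (1.30, edgeR adjusted p = 0.0646). Krt15, a basal keratin that also marks some crypt cells in the mouse, averaged 2.30 ± 1.67 CPM in p57KO and 0.632 ± 0.335 CPM in p57WT, with a log2 fold change of 1.79 (SE 0.60, edgeR adjusted p = 0.0319), and passed in 5 of the 10 fits that left out 1 library. Without both 607 p57KO libraries Krt15 was at 0.83 (edgeR adjusted p = 0.260) and Krt23 at 1.12 (edgeR adjusted p = 0.103). The other tested keratins, Krt80 and the hair keratin Krt35, had log2 fold changes of -0.28 and 0.36 with edgeR adjusted p of 0.789 and 0.770.

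Cldn7, which spans the lateral membrane of gut cells and binds Epcam, was the claudin with the highest level per length. It was at 1704, 1515, 920, 1085 and 863 CPM in p57KO 1 to 5, and at 685, 402, 406, 468 and 314 CPM in p57WT 1 to 5. All p57KO libraries were above all p57WT libraries, with the 2 of number 607 highest in p57KO and that of 607 highest in p57WT. The means were 1218 ± 373 CPM in p57KO and 455 ± 140 CPM in p57WT (SD, n = 5 each), with a log2 fold change of 1.42 (SE 0.30, 95% limits 0.77 to 2.07, edgeR adjusted p = 0.00363). Relative to the epithelial markers Cldn7 was 2.83 to 5.08 times their mean in p57KO and 2.98 to 3.65 times in p57WT, a log2 difference of 0.17 (edgeR adjusted p = 0.642). The gene lies on chromosome 11, 69964779 to 69967885, plus strand (ENSMUSG00000018569).

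The pore-forming claudins Cldn2, a channel for cations and water, and Cldn15, a cation channel of the small intestine, both rose. Cldn2 was at 545, 463, 347, 421 and 216 CPM in p57KO 1 to 5, and at 264, 113, 147, 133 and 80.3 CPM in p57WT 1 to 5. It overlapped in p57KO 5 and p57WT 1. The means were 398 ± 125 CPM in p57KO and 148 ± 69.8 CPM in p57WT (SD, n = 5 each), with a log2 fold change of 1.43 (SE 0.34, edgeR adjusted p = 0.00664). Cldn15 was at 228, 299, 173, 254 and 134 CPM in p57KO 1 to 5, and at 125, 73.7, 62.3, 90.3 and 36.0 CPM in p57WT 1 to 5. The groups did not overlap, though p57KO 5 and p57WT 1 were again the closest pair. The means were 217 ± 65.3 CPM in p57KO and 77.5 ± 33.3 CPM in p57WT (SD, n = 5 each), with a log2 fold change of 1.49 (SE 0.33, edgeR adjusted p = 0.00450). Relative to the epithelial markers these were 0.23 and 0.27 (edgeR adjusted p = 0.513 and 0.428).

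Cldn8, a claudin known from the distal colon and the distal nephron, was the claudin with the largest increase. It was at 42.7, 50.6, 345, 381 and 116 CPM in p57KO 1 to 5, and at 11.7, 10.5, 12.1, 7.72 and 13.6 CPM in p57WT 1 to 5. Every p57KO library was above every p57WT library, and the 3 libraries of number 608 were higher than the 2 of 607. The means were 187 ± 164 CPM in p57KO and 11.1 ± 2.22 CPM in p57WT (SD, n = 5 each), with a log2 fold change of 4.07 (SE 0.60, 95% limits 2.77 to 5.37, edgeR adjusted p = 0.000605), or 16.8-fold. Within p57KO the difference of 607 minus 608 was -2.59 (edgeR adjusted p = 0.0120), and within 607 the genotype difference was 1.99 (edgeR adjusted p = 0.101), while without both 607 p57KO libraries it was 4.73 (edgeR adjusted p = 7.0e-05). Relative to the epithelial markers Cldn8 stayed higher at 2.67 (edgeR adjusted p = 0.000975), and per length it took 7.69% ± 6.76 of the claudin level in p57KO and 1.23% ± 0.564 in p57WT. The gene lies on chromosome 16, 88560828 to 88563183, minus strand (ENSMUSG00000050520).

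Of the sealing claudins Cldn3 rose by the smallest margin. It was at 187, 391, 110, 110 and 136 CPM in p57KO 1 to 5, and at 143, 91.9, 81.6, 75.9 and 45.4 CPM in p57WT 1 to 5. The groups overlapped, as 3 p57KO libraries were below p57WT 1. The means were 187 ± 118 CPM in p57KO and 87.6 ± 35.6 CPM in p57WT (SD, n = 5 each), with a log2 fold change of 1.09 (SE 0.39, edgeR adjusted p = 0.0431), which was lost in 6 of the 10 fits that left out 1 library (0.63 to 1.11, edgeR adjusted p = 0.0518 to 0.122) and turned to -0.11 relative to the epithelial markers. Cldn23, known in human colon surface cells, was at 50.6, 143, 39.8, 40.2 and 45.4 CPM in p57KO 1 to 5, and at 25.3, 28.2, 29.0, 19.4 and 11.4 CPM in p57WT 1 to 5. All p57KO libraries were above all p57WT libraries, p57KO 2 by far the highest. The log2 fold change was 1.49 (SE 0.40, edgeR adjusted p = 0.0113).

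Cldn4, which can act as a barrier or an anion pore by context, and Cldn12, a calcium-linked claudin of the gut, did not pass in the comparison of all libraries. Cldn4 was at 86.4, 36.9, 32.5, 23.1 and 48.9 CPM in p57KO 1 to 5, and at 48.8, 20.2, 34.1, 30.6 and 23.1 CPM in p57WT 1 to 5. The groups overlapped broadly, and the log2 fold change was 0.54 (95% limits -0.23 to 1.30, edgeR adjusted p = 0.247), or -0.68 relative to the epithelial markers. Cldn12 was at 26.1, 22.4, 63.7, 88.3 and 33.9 CPM in p57KO 1 to 5, and at 24.5, 31.9, 15.7, 25.5 and 20.3 CPM in p57WT 1 to 5. Only the 608 libraries were above all p57WT libraries. Its log2 fold change was 0.99 (95% limits 0.19 to 1.80, edgeR adjusted p = 0.0518), which lies close to the threshold. It passed with DESeq2 (1.05, DESeq2 adjusted p = 0.0296), with DESeq2's size factors in edgeR (1.02, edgeR adjusted p = 0.0495), in 4 of the 10 fits that left out 1 library, and without both 607 p57KO libraries (1.47, edgeR adjusted p = 0.00424). It was -0.38 relative to the epithelial markers and -0.011 within 607.

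Less abundant claudins included 2 that rose. Cldn14, known from the inner ear and kidney, ranged over 4.30 to 11.5 CPM in p57KO, against 0.392 to 2.50 CPM in p57WT, without overlap, and its log2 fold change was 2.37 (SE 0.49, edgeR adjusted p = 0.00305). Cldn6, a claudin of embryonic epithelia, ranged over 1.38 to 7.84 CPM in p57KO, against 0 to 1.71 CPM in p57WT, with p57KO 1 below p57WT 1, and its log2 fold change was 2.96 (SE 0.74, edgeR adjusted p = 0.00854). Without p57WT 1 Cldn6 was at 3.68 (edgeR adjusted p = 0.00529), and within 607 at 1.06 (edgeR adjusted p = 0.634). The barrier claudin Cldn1 was at 1.0 (edgeR adjusted p = 0.133) and Cldn19 at 0.66 (edgeR adjusted p = 0.461) on the log2 scale.

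**Figure D4:**
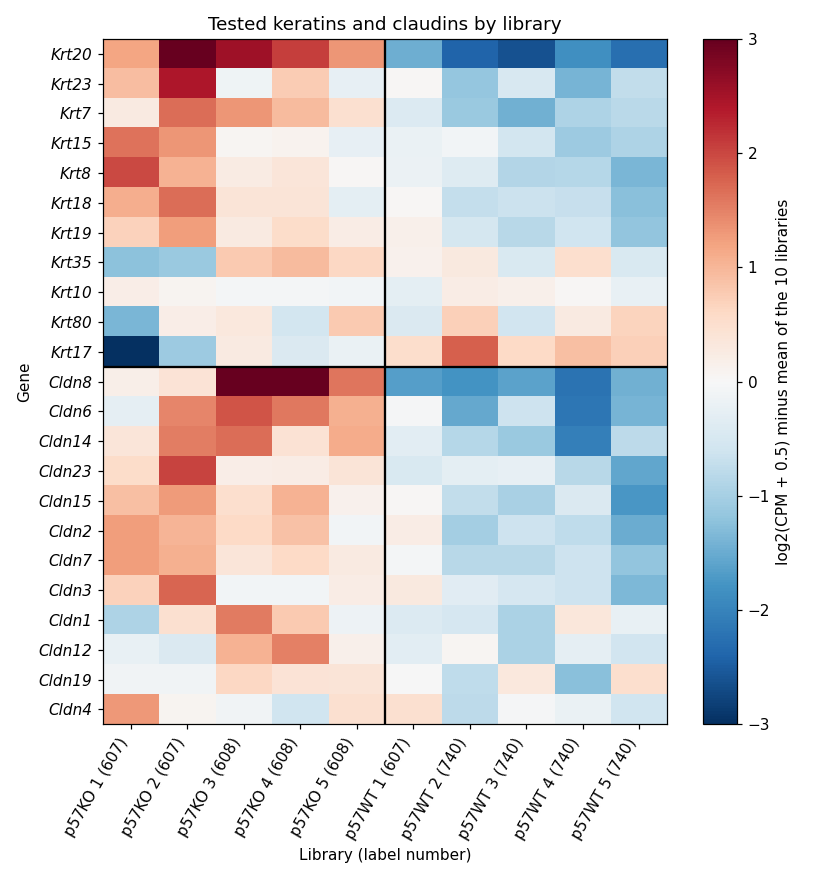
Log2(CPM + 0.5) minus the gene's mean for the 23 tested members (rows) in the 10 libraries (columns, p57KO left of p57WT). Colours are capped at 3 on either side of 0. Krt20 is red in every p57KO and blue in every p57WT library, Krt17 is bluest in p57KO 1, and Cldn8 is darker red in p57KO 3 to 5.

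The 8 members removed by the filter were at or below 6.60 CPM in every library and are given as pooled counts. In the alternatives that tested them, Cldn9 and Cldn13 (higher) and Krt1 (lower) passed, with DESeq2 (DESeq2 adjusted p = 3.21e-07, 2.79e-06 and 0.00838) and with edgeR without the filter. Cldn9, next to Cldn6, had 456 counts in p57KO and 5 in p57WT, a ratio of 52.6 after scaling (exact 95% counting interval 22.4 to 163). Cldn13, known from mouse erythroid progenitors, had 374 counts in p57KO and 4 in p57WT, a ratio of 53.9 (20.9 to 199). The p57KO libraries were above the p57WT libraries for both. Erythroid markers summed to 73.6 to 1006 CPM in p57KO and 2.09 to 62.8 CPM in p57WT, and their part in the Cldn13 counts was not tested. Krt1 and Krt5, suprabasal and basal skin keratins, had 22 and 16 counts in p57KO against 92 and 60 in p57WT, ratios of 0.138 (0.0824 to 0.221) and 0.154 (0.0827 to 0.270). Cldn10, Krt87, Krt36 and Krt222 had 120, 119, 47 and 40 counts in p57KO and 26, 34, 12 and 20 in p57WT. Pooled counts weigh deep libraries more. The authors' deposited table gave Cldn9 a log2 fold change of 5.60 and Cldn13 of 5.47, with adjusted p of 5.24e-07 and 4.22e-06, and that table called 37.5% of all its genes, 20.5% higher in p57KO.

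After adjustment few members differed between label numbers within a genotype, at a share near that of all genes in p57KO. Between 607 and 608 in p57KO 2 of 23 members passed, Cldn8 (-2.59) and Krt35 (-5.47, edgeR adjusted p = 0.0141), against 6.68% of all genes. Before adjustment 11 of the 23 members had an edgeR p below 0.05 there, against 24.4% of all genes. Krt35 was at 0 and 0.0424 CPM in p57KO 1 and 2, below 3 counts there (0.258 and 0.127 CPM). It was at 1.31 to 1.76 CPM in p57KO 3 to 5. Between 607 and 740 in p57WT, where 1 library of 607 stands alone, edgeR called 0 members, and 0% of all genes, while 4 members and 2.19% of all genes had an unadjusted p below 0.05, and DESeq2's size factors in the same fit also gave 0. Within 607, where Krt20 alone passed, the log2 fold change of p57KO over p57WT was above 0 for 19 of 23 members and for 55.6% of all genes, with a median of 1.06 over the members and 0.15 over all genes. There Krt8 was at 1.76, Krt18 at 1.39, Krt19 at 0.86, Krt7 at 1.57, Cldn7 at 1.23, Cldn2 at 0.93 and Cldn15 at 1.07, with edgeR adjusted p between 0.0914 and 0.307.

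Other junction and filament genes moved in both directions on the TMM scale, where 19.3% of all genes were higher and 17.2% lower. They moved mostly down when scaled to the epithelial markers, where 61.3% of all genes were lower. Of 26 tested tight junction genes outside the claudins 10 rose, 5 fell and 11 did not pass, with a median log2 fold change of 0.08, while on the epithelial scale 1 was higher and 16 were lower. Ocln, the tight junction membrane protein occludin, rose by 2.15, F11r (the adhesion molecule JAM-A) by 1.68 and the polarity protein gene Crb3 by 1.73, while the cingulin relative Cgnl1 was at -1.75 (edgeR adjusted p = 0.00103, 0.000604, 0.00127 and 0.000666). Of 15 desmosome and keratin linker genes 3 rose (Perp 1.45, Dsc2 1.54 and Ppl 1.21, edgeR adjusted p = 0.00291, 0.00380 and 0.0207), Plec, a linker of filaments also used in muscle, fell (-1.77, edgeR adjusted p = 0.00115) and 11 did not pass, with a median of 0.04. On the epithelial scale none of the 15 was higher and 9 were lower.

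Of 10 adherens junction genes 1 rose, 1 fell and 8 did not pass, while 36.5% of all genes passed on the TMM scale. Cdh1, the epithelial cadherin and also 1 of the epithelial markers, rose (0.96, edgeR adjusted p = 0.0245). Vcl, an actin linker, fell (-1.66, edgeR adjusted p = 0.00850). Of 11 other intermediate filament genes, 1 rose (Nefm, a neurofilament gene, 1.35, edgeR adjusted p = 0.0171) and 6 fell. On the epithelial scale 6 adherens junction genes and 9 of these filament genes were lower and none was higher. Among those that fell were Synm (-3.0) and Des (-2.31), filament proteins of muscle, with Lmna (-1.72) and Nes (-1.19), the edgeR adjusted p running from 0.000745 to 0.00578. Des is also 1 of the 8 smooth muscle markers, which all fell.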

How the data were processed

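Raw counts per gene were deposited by the authors for 10 libraries, 1 column each, per the file headers. The deposited table also held a signal, the count divided by 1 size factor per library, and the authors' genotype comparison as log2 fold changes, a score (the Wald statistic) and raw and adjusted p-values, per the file headers. Alignment and counting tools per the submitters' processing notes include DESeq2 1.22.2, HTSeq 1.0 and STAR 2.6.1d. Roles of these tools, strandedness and annotation release are not given in the sources used here. Genes with a mean normalized count under about 3 were not analysed here.

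Counts were fitted with edgeR 4.0.16 in R 4.3.3 (quasi-likelihood test, TMM scaling, the tool's expression filter, which removed 3869 genes, genotype as the only term) over all 10 libraries, with Benjamini-Hochberg adjustment over 16710 genes and a threshold of 0.05. The fit was tested on simulated data. Contrasts of label numbers used the 4 combinations of genotype and number. Members and gene lists were chosen with earlier results of these data known. Named members were those with a mean of at least 5 CPM, those called, and Krt20, Krt7 and Cldn7. Values per library were given from a mean of 20 CPM and for those 3, and up to 4 genes with the smallest p for each junction or filament list. Values of members below these levels, and the low keratins and claudins removed by the filter, were added after their values were seen. No pair of libraries agreed within sampling noise (chi-square at least 9.5 per degree of freedom). Alternatives were DESeq2 1.42.0, its size factors, no filter, scaling to epithelial markers, leaving out libraries, the label number or replicate number as a term, other lengths and, chosen after seeing the data, the ribosomal RNA share class (above or below 5%).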

Additional observations from a re-analysis of the deposited data

Results flagged for a closer look

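In 46 groups of 5 libraries, 4 held a library set apart from the other 4, its gap to the nearest being more than 0.71 of the group's range. For independent, normally distributed values chance sets about 1 in 20 such groups apart. These groups hold CPM from the same 10 libraries, so that rate may not apply. Cldn23 was at 142.7 CPM in p57KO 2, against 50.57 CPM in the next p57KO library. Cldn3 was at 390.5 CPM in p57KO 2, against 187 CPM in the next. Krt23 was at 17.75 CPM in p57KO 2, against 5.93 CPM in the next. Krt17 was at 90.27 CPM in p57WT 2, against 48.54 CPM in the next p57WT library. Without p57KO 2 Cldn23 still passed (0.97), whereas Cldn3 (0.63, edgeR adjusted p = 0.122) and Krt23 (1.30, edgeR adjusted p = 0.0646) did not, and without p57WT 2 Krt17 did not (-1.25, edgeR adjusted p = 0.0638).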

How the results depend on the processing

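Of the 16 members called, 12 passed in all 10 fits that left out 1 library, Krt20 passed in every alternative, and Cldn8 and Cldn6 in every one but the label number as a term. Scaled to epithelial markers 5 members passed, with 1 keratin and 2 claudins higher and 2 keratins lower, and Cldn12 (-0.38), Cldn3 (-0.11), Cldn4 (-0.68), Krt10 (-1.33) and Krt19 (-0.055) changed sign, as did the low Krt35, Cldn1 and Cldn19. With a term for label number, resting on 607, 1 member passed, with 1 keratin higher, 0 keratins lower and 0 claudins higher, and Cldn12 was at -0.011. With the ribosomal RNA share class as a term 6 passed, with 2 keratins higher, 0 lower and 4 claudins higher, and Krt10 was at -0.11. With DESeq2 20 of 31 members passed, against 38.3% of all genes, and with no expression filter 19 of 31, against 31.5%. In these fits 11 and 10 claudins were higher and 2 keratins lower in each. Leaving out 1 library gave 0 to 2 keratins lower and -0.043 to 0.091 for Krt10, which was at -0.011 without both 607 p57KO libraries. With coding length the 3 main keratins held 88.6% in p57KO and 90.8% in p57WT. With the replicate block 15 of 23 members passed, against 34.7% of all genes, Krt23 being lost (1.72, edgeR adjusted p = 0.0571). The replicate numbers, which are not the label numbers, did not pair the libraries, as deviations of libraries with the same replicate number correlated at -0.148 to 0.226. Causes of these changes were not tested.

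Depth limits the low members, as 3 counts equal up to 0.392 CPM. The single p57WT library of 607, which also had a higher ribosomal RNA share, limits every value within that number.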
